A study of Mus musculus with 6 samples.

Results

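The genes described here encode the shared parts of signalling by the interleukin-6 family of cytokines through the receptor chain gp130. They are the receptor genes Il6st, Lifr, Cntfr and Osmr, the kinase genes Jak1 and Jak2, the transcription factor genes Stat3, Cebpb and Cebpd, and the feedback inhibitor gene Socs3. They were taken by symbol. All 10 have a row among the 12968 genes of the deposited table, and 9 passed a filter on the mean level that removed Cebpb.

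The samples are RNA pulled down with tagged ribosomes from the middle section of the left brain hemisphere of 6 mice. In 3 mice the middle cerebral artery was occluded for 1 h (MCAO, a model of stroke), 3 control mice had no occlusion, and all were killed after 3 days. Every animal went through the RiboTag pull-down, in which cells with Cre recombinase carry a tag on a ribosomal protein. The Cre driver, strain, age and sex were not given in the sources used here, and no sham operation is named. The title of the series speaks of the astrocyte transcriptome.

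Cytokines of this family bring gp130, encoded by Il6st, together with a partner chain such as the LIF receptor or the oncostatin M receptor. The receptor-bound Janus kinases JAK1 and JAK2 then phosphorylate the tails, STAT3 docks there, is itself phosphorylated and moves to the nucleus, where it switches on genes that include Socs3. SOCS3 binds gp130 and the kinases and stops the signal, and C/EBP beta and C/EBP delta are transcription factors long known from the interleukin-6 response. In astrocytes STAT3 is best known for its role in reactive gliosis and in the expression of Gfap. Phosphorylation was not measured, so the values below speak of ribosome-bound mRNA only.

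Sequences from promoter windows are shown for Socs3 and Stat3 because these were the members called higher after MCAO. RefSeq promoter windows (GRCm38.p6, the build mm10 of the files) were found for 9 of the 10 members, 15 windows in all. The 250 bases before each start were searched on both strands for the STAT motif TTCNNNGAA, which is its own reverse complement, and for the C/EBP motif TTGCNNAA. Matches of the 2 motifs were counted separately. A STAT match was found in 1 of the 15 windows, that of Socs3, and a C/EBP match in 0, while 7.01% and 9.57% of all 32817 windows of this length hold them. The Socs3 window (chr11:117969367-117969616) lies inside the annotated span of the gene, downstream of the span's first base on the minus strand (117970336). Bases before that first base were not searched. For this reason only 30 bases around the match (chr11:117969501-117969530, minus strand) are printed, with the match in capitals. The match begins 154 bases before the RefSeq start on which the window was set. For Stat3 the 196 bases of the window that lie outside the gene's span (chr11:100939595-100939790, minus strand) are printed, and they have no capitals. Such a match is a description of letters and not of a bound site.

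Socs3: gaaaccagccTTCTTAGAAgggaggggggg

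Stat3: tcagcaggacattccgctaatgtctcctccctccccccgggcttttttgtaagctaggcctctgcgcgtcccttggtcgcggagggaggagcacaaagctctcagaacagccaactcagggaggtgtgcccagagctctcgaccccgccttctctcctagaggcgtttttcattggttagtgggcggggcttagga

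Levels are given as scaled read counts, the reads of a gene divided by the authors' scale factor for the library. Recovered reads per library ran from 882263 in MCAO 2 to 9519548 in control 1. The shallowest library of each group, control 2 and MCAO 2, leaves the low members on few reads, and the depth behind those values is given beside them. Of the cell type markers, all 10 listed for astrocytes and all 10 for neurons were tested. Summed astrocyte markers, among them the glutamate transporter gene Slc1a2 and the aldolase gene Aldoc, stood at 24195 to 39315 in controls and 23271 to 30470 after MCAO, with 0 of 10 called by limma or edgeR and 1 at an unadjusted p under 0.05. These sums overlap through control 2 alone, since controls 1 and 3, at 39315 and 37861, lie above every MCAO library. Slc1a2, which alone made up 16528 of the 39315 in control 1, had a log2 change of -0.53 (limma adjusted p = 0.273). This was -0.80 and called without control 2 (0.0168), and -0.84 with MCAO 2 left out as well (0.00417). It was -0.40 without control 1 and -0.38 without control 3, and not called (0.541 and 0.564). Aldoc had a log2 change of 0.25 (adjusted p = 0.578). Of the 10 astrocyte markers 7 had a negative and 3 a positive log2 change. Summed neuron markers, among them Snap25 and Slc17a7, stood at 14842 to 17239 and 13988 to 16610, so neuronal RNA is present in these precipitates. Of the 10 neuron markers 0 rose and 1 fell by limma and by edgeR, the dopamine receptor gene Drd1, from 128 ± 17.3 to 45.7 ± 10.4 (n = 3 each, log2 change -1.48, adjusted p = 0.00215). Summed microglia markers, 12 of 12 tested and 8 of them risen, went from 592 to 819.6 in controls to 2049.7 to 2836 after MCAO, with no overlap. Oligodendrocyte markers rose in 3 of 8, and their sum went from 8249 to 9421 in controls to 12199 to 15632. Among all tested genes limma called 3.08%, edgeR called 4.14%, and 19.3% were at an unadjusted p under 0.05 in limma. In such bulk samples a change in the number of cells of a type and a change in RNA per cell cannot be told apart.

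Stat3 and Socs3 rose after MCAO, while no receptor or kinase gene was called in either direction. In limma's test over 12549 genes, a gene is called at a Benjamini-Hochberg adjusted p under 0.05, and 3.08% of tested genes were called, 2.3% higher and 0.789% lower. Of the 9 tested members, 2 were called higher and 0 lower. Socs3, 1 of these 2, passed the filter on the mean only through its MCAO libraries, as did Osmr (control means 5.24 and 7.65). The count is therefore not independent of the filter. At an unadjusted p under 0.05 there were 3 members, all higher, namely Stat3, Socs3 and Cebpd, and 19.3% of all tested genes were below the same p. The same 3 members were called by edgeR, which called 4.14% of genes. The median log2 change of the 9 members was -0.22, against -0.01 for all tested genes. The groups did not overlap in 4 of the 9 members, 3 higher and 1 lower after MCAO, and in 24.9% of tested genes.

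**Figure D1:**
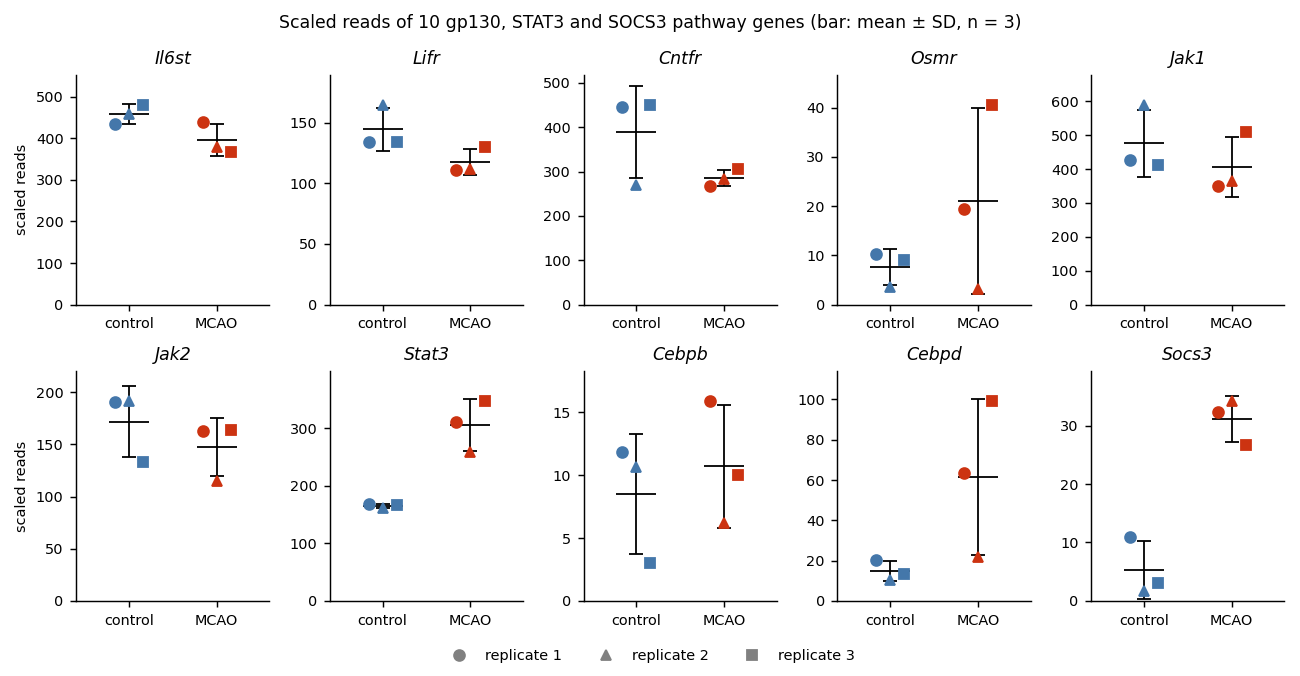
Scaled reads of the 10 members in each library, on an axis from 0, with control animals in blue, MCAO animals in red, a marker shape per replicate and bars at mean ± SD (n = 3). Stat3 and Socs3 stand apart between the groups, Cebpd is higher but widely spread after MCAO, and the other members overlap or nearly touch.

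Stat3 (chromosome 11, 100886806 to 100939594) encodes the transcription factor at the end of the pathway. It stood at 168, 161 and 166 scaled reads in controls 1, 2 and 3, and at 311, 258 and 347 in MCAO 1, 2 and 3. The controls were nearly equal, and the lowest MCAO library lay well above the highest control. The mean went from 165 ± 3.28 to 305 ± 44.7 (SD, n = 3 each), which is 1.85-fold. The log2 change, on the log2(value + 1) scale used throughout, was 0.87 (SE 0.16, 95% interval 0.53 to 1.21, limma adjusted p = 0.00778). By size of log2 change Stat3 was moderate, with 6.92% of tested genes changed more in either direction. Over the 15 alternatives the change ranged from 0.78 to 0.99, and the call was lost without MCAO 3 (adjusted p = 0.0647) and, with all libraries, without the intensity trend (0.0759).

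Socs3 (chromosome 11, 117966079 to 117970336) encodes the inhibitor that STAT3 induces. It was at 10.9, 1.77 and 3.02 scaled reads in the controls and at 32.4, 34.2 and 26.6 after MCAO. All MCAO libraries were above all controls, and they were close to each other while control 1 stood above the other controls. These values rest on 38, 1 and 2 reads in the controls and 55, 11 and 40 after MCAO. The exact 95% counting intervals of controls 2 and 3 reach from 0.0449 to 9.88 and from 0.366 to 10.9 scaled reads, so they overlap that of control 1, which begins at 7.74. The log2 change was 2.64 (SE 0.57, 95% interval 1.41 to 3.87, adjusted p = 0.0239), and 0.534% of tested genes changed more. With a control mean of 5.24, Socs3 reached the mean of 10 needed for testing only through its MCAO values.

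The size of the Socs3 change depended on how the few control reads were treated. Reads summed over each group gave 106 against 41 and a ratio per unit of depth of 3.45 (95% exact interval 2.39 to 5.08, counting error only), with most control reads from control 1. The ratio of the group means was 5.93, and edgeR gave a log2 change of 2.08 (adjusted p = 0.0213). With a pseudocount of 10 the log2 change was 1.47, and without control 1 it was 3.26. The call was lost without control 3 (0.0536), MCAO 1 (0.0838), MCAO 2 (0.0771) or MCAO 3 (0.0935), and without the intensity trend (0.0654), while the direction held in each. Within each library, log2 Socs3 minus log2 Stat3 was -3.94, -6.51 and -5.78 in the controls and -3.27, -2.92 and -3.70 after MCAO. The scale factor cancels in this difference, which was higher in every MCAO library than in any control. MCAO 3 lay only just above control 1, with Socs3 on 40 and 38 reads.

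Cebpd (chromosome 16, 15887286 to 15889545) and Cebpb (chromosome 2, 167688915 to 167690432) encode the C/EBP factors of the interleukin-6 response. Cebpd was at 20.1, 10.6 and 13.6 scaled reads in the controls and at 63.5, 21.8 and 99.2 after MCAO. The groups did not overlap, but MCAO 2, with 7 reads, lay just above control 1, with 70 reads. The mean went from 14.8 ± 4.87 to 61.5 ± 38.8 (n = 3 each), and the log2 change of 1.79 (SE 0.47, 95% interval 0.77 to 2.80) narrowly missed the threshold in limma (adjusted p = 0.0581). It passed in edgeR on the recovered reads (log2 change 2.04, adjusted p = 0.00486) and in DESeq2 (0.000727). In limma it passed with a pseudocount of 10 (0.0472), without MCAO 2 (2.39, 0.00416), and with control 2 and MCAO 2 both left out (0.000786). It did not pass in the other alternatives, among them without MCAO 3 (1.32, 0.234), MCAO 1 (0.139), control 2 (0.134), control 3 (0.115) or the intensity trend (0.188). Summed reads were 264 against 85, a ratio per unit of depth of 4.15 (95% exact interval 3.23 to 5.36). That interval covers counting error only and not the spread between animals.

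Cebpb was at 11.8, 10.6 and 3.02 scaled reads in the controls and at 15.9, 6.22 and 9.99 after MCAO, and the groups overlapped. It is the member below the filter on the mean, and 49 control and 44 MCAO reads stand behind it. Their ratio per unit of depth had a 95% exact interval of 0.779 to 1.84 (counting error only). Without the filter the log2 change of Cebpb was 0.39 (SE 0.62, adjusted p = 0.772). Within a library, log2 Cebpd minus log2 Cebpb was 0.77, 0.00 and 2.17 in the controls and 2.00, 1.81 and 3.31 after MCAO, and these overlapped through control 3, where Cebpb has 2 reads.

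**Figure D2:**
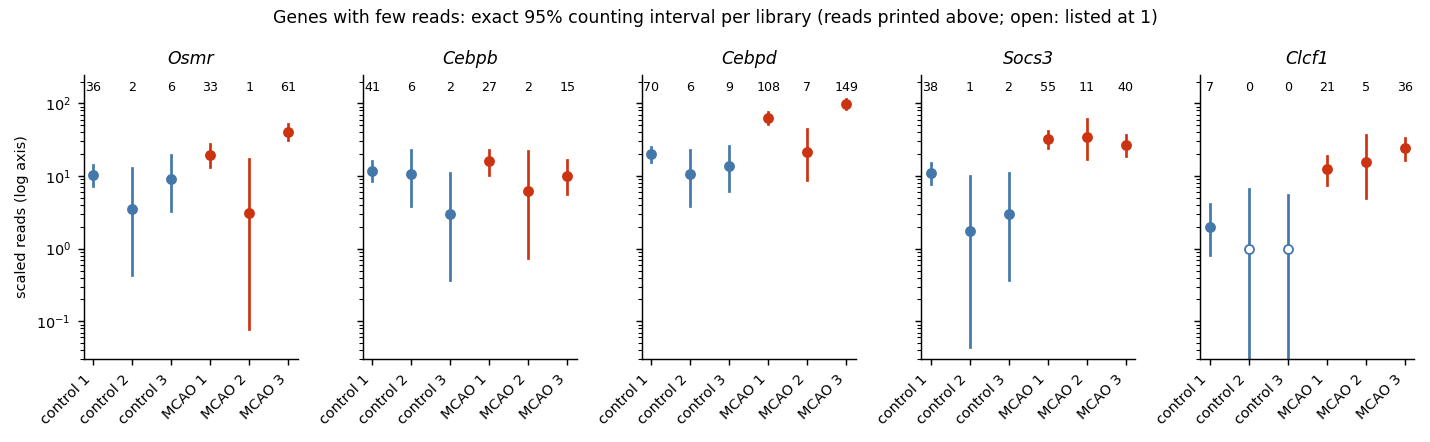
Scaled reads on a log axis for the members with few reads and the ligand gene Clcf1, per library, with exact 95% counting intervals drawn down to the edge of the axis where the count is 0, and the reads printed above. The intervals of Socs3 and Clcf1 in each MCAO library lie above those of control 1, while Osmr in MCAO 2 rests on 1 read and its interval covers the controls.

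Levels of the receptor chains did not pass the test. Of 4 receptor genes 0 were called by limma or edgeR, and 0 were at an unadjusted p under 0.05. Il6st (chromosome 13, 112464070 to 112506860), which encodes gp130 itself, was at 433, 459 and 481 scaled reads in the controls and at 439, 379 and 368 after MCAO. MCAO 1 lay among the controls and the other MCAO libraries below them. Its log2 change of -0.22 (SE 0.14) had a 95% interval of -0.52 to 0.09, whose upper bound lies below the 0.53 of the lower bound for Stat3, though the difference between these genes was not tested.

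Lifr (chromosome 15, 7090610 to 7197489), the gene of the LIF receptor, was at 134, 165 and 134 scaled reads in the controls and at 111, 112 and 129.9 after MCAO. All MCAO libraries were lower, MCAO 3 by little, and the log2 change of -0.29 (SE 0.18, 95% interval -0.67 to 0.08) did not pass (adjusted p = 0.383). Cntfr (chromosome 4, 41657498 to 41697091) encodes the CNTF-binding chain, which is anchored to the membrane and has no signalling tail. It was at 447, 269.6 and 451 scaled reads in the controls and at 268, 283 and 306 after MCAO, so that control 2 stood with the MCAO libraries and apart from the other controls. The log2 change of -0.41 (SE 0.19, 95% interval -0.82 to 0.0005) was not called (adjusted p = 0.260). It was -0.29 without control 1 and -0.28 without control 3, and not called (0.542 and 0.543). Without control 2 it was -0.65 and was called (0.0304), as it was with both control 2 and MCAO 2 left out (-0.65, 0.0136), an alternative chosen after seeing the data. Astrocyte markers were low in the same control, as given above, and their part in the Cntfr result was not tested.

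Osmr (chromosome 15, 6813568 to 6874968), the gene of the oncostatin M receptor, was the receptor gene with the highest log2 change, but its MCAO libraries disagreed. It was at 10.4, 3.55 and 9.05 scaled reads in the controls and at 19.4, 3.11 and 40.6 after MCAO. MCAO 1 and MCAO 3 were above every control, and MCAO 2 was below them all on 1 read, with an exact 95% interval of 0.0787 to 17.3 scaled reads. The log2 change was 0.92 (SE 0.76, 95% interval -0.71 to 2.54, adjusted p = 0.539), with 0.19 without MCAO 3 and 1.86 without MCAO 2, and it was not called in any alternative run. Summed reads were 95 against 44, a ratio per unit of depth of 2.88 (95% exact interval 1.99 to 4.22) that covers counting error only and not the spread between animals. Log2 Osmr minus log2 Lifr was -3.70, -5.54 and -3.89 in the controls and -2.51, -5.17 and -1.68 after MCAO. It was above every control in MCAO 1 and MCAO 3 and among them in MCAO 2.

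Levels of the kinase genes overlapped between the groups. Neither was called by limma or edgeR, and 0 of 2 were at an unadjusted p under 0.05. Jak1 (chromosome 4, 101151974 to 101265282), which encodes the main kinase of gp130 receptors, was at 426, 591 and 412 scaled reads in the controls and at 349, 364 and 508 after MCAO, with a log2 change of -0.23 (SE 0.18, 95% interval -0.62 to 0.17). Jak2 (chromosome 19, 29251803 to 29313095) was at 191, 192 and 133 in the controls and at 163, 115 and 164 after MCAO, with a change of -0.22 (SE 0.20, 95% interval -0.65 to 0.21). Both intervals include 0, and the changes were 0.007 and 0.037 with control 2 and MCAO 2 left out. Log2 Jak2 minus log2 Jak1 ranged from -1.63 to -1.16 in the controls and from -1.66 to -1.10 after MCAO, so these spans nearly coincide.

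The other genes of the pathway, taken from lists by role, were called about as often as all genes. The lists hold 51 genes, of which 36 were in the table and 34 were tested. Of these 34, 1 rose and 0 fell by limma and by edgeR, 8 were at an unadjusted p under 0.05, and the median log2 change was 0.04. These shares are near the 3.08% called and the 19.3% at that p among all tested genes, so the counts are no result about the lists. The called gene, Ptpn6, encodes SHP-1, a phosphatase that is mostly found in blood-derived and myeloid cells. It was at 2.88, 10.6 and 13.6 scaled reads in the controls and at 60.6, 24.9 and 55.9 after MCAO (log2 change 2.37, SE 0.53, adjusted p = 0.0274), and the call was lost without control 1 (0.0640), MCAO 1 (0.0998), MCAO 3 (0.131) or the intensity trend (0.123). Its reads were 10, 6 and 9 in the controls and 103, 8 and 84 after MCAO. The exact 95% counting interval of MCAO 2, from 10.7 to 49.0 scaled reads, overlaps those of controls 2 and 3. Microglia markers were also higher after MCAO, with a median log2 change of 1.89 over 12 genes. So were the blood myeloid markers Lyz2 and Csf3r, at 2.42 and 2.51. These are the tested genes of a list of 9, of which 3 had a row, and the third, Mrc1, was at 0.13 without the filter, with overlapping groups. Among the MCAO libraries, Ptpn6 and the summed microglia markers were lowest in MCAO 2, Lyz2 was highest there, and Csf3r was lowest in MCAO 3. The part of microglia and blood myeloid cells in the Ptpn6 result was not tested.

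**Figure D3:**
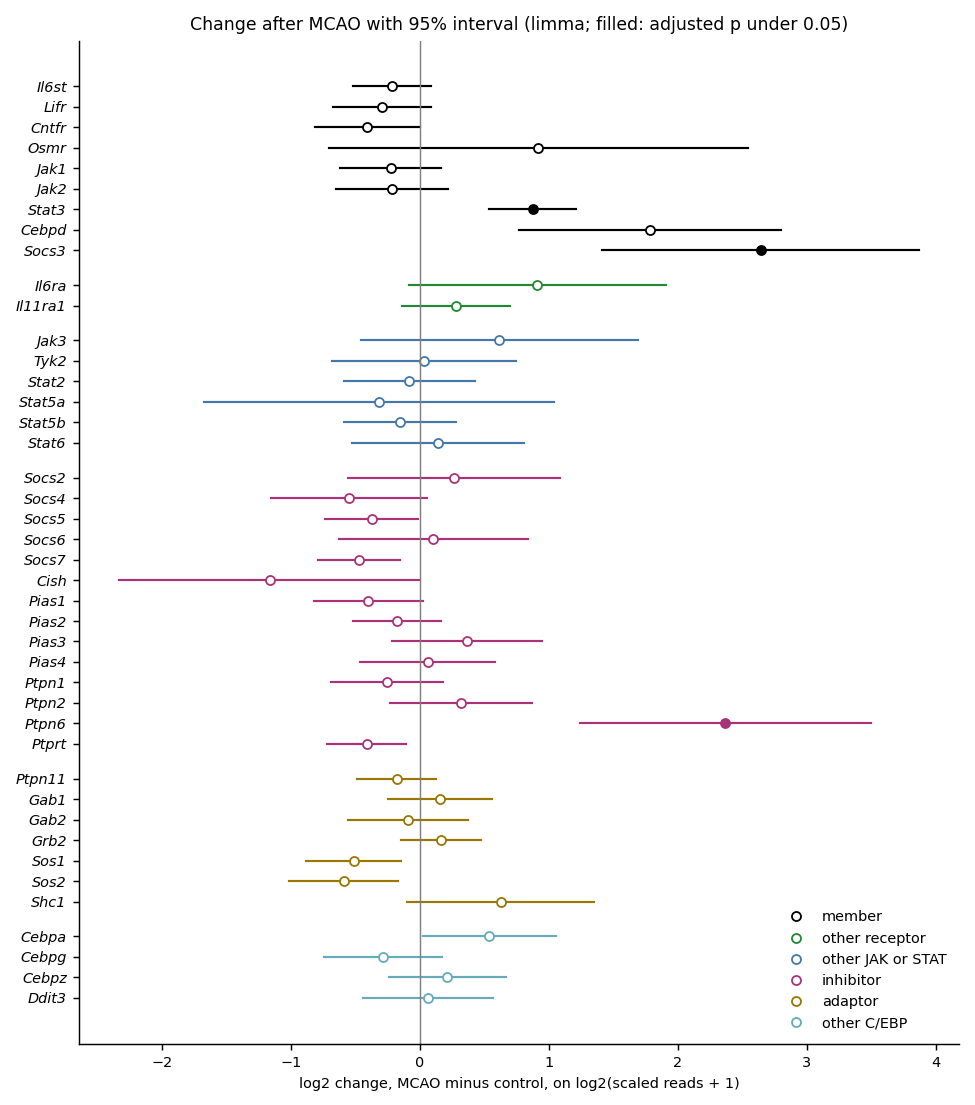
Log2 change from control to MCAO with its 95% interval for the 9 tested members and other tested pathway genes, coloured by role, with filled points for an adjusted p under 0.05. Stat3, Socs3 and Ptpn6 are filled, and most of the other intervals include 0.

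Ligand genes were low or had no row. Of 11 listed, 2 were in the table and 0 reached the mean of 10 scaled reads, while Il6, Lif, Osm and Cntf had no row in it. CLCF1 is a cytokine that acts through the CNTF receptor. Clcf1 was at 2.01 scaled reads in control 1 and listed at 1 in controls 2 and 3, against 12.4, 15.6 and 24.0 after MCAO. Reads were 7 in the controls and 62 after MCAO, a ratio per unit of depth of 11.8 (95% exact interval 5.41 to 30.6, counting error only). In a fit without the filter, where 3% of 12968 genes were called, Clcf1 was called (log2 change 2.95, SE 0.66, adjusted p = 0.0286). Clcf1 was named after its values were seen, and its test exists only where the filter is dropped. In each row of the deposited table at least 1 library reaches 10.6 scaled reads. Clcf1, at no more than 2.01 in the controls, thus has a row only through its MCAO values.

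The other receptor genes tested were Il6ra, for the interleukin-6 binding chain, and Il11ra1, for that of interleukin-11. Il6ra went from 10.4 ± 3.25 to 20.3 ± 6.64 scaled reads (SD, n = 3 each), Il11ra1 ranged from 97.6 to 133 in controls and from 119 to 162 after MCAO, and neither was called (adjusted p = 0.302 and 0.464). Of 7 other JAK and STAT genes tested, 0 were called by limma or edgeR and 0 were at an unadjusted p under 0.05, with log2 changes from -0.32 to 0.62. The most abundant was Stat5b, at 145 ± 10.7 and 133 ± 38.3. Stat3 was thus the sole tested STAT gene that was called, though its difference from the other STAT genes was not tested.

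Of 14 tested inhibitor genes besides Socs3, Ptpn6 rose and 0 fell. In 5 of them, against 12.5% of all tested genes, every MCAO library was below every control, and none of the 5 was called by limma or edgeR. Socs7, for example, which was chosen after its values were seen, went from 412 ± 40.8 to 297 ± 29.4 scaled reads (log2 change -0.47, SE 0.15, adjusted p = 0.103). Cish, a SOCS family gene of STAT5 signalling also chosen in that way, went from 22.7, 19.5 and 18.1 to 12.9, 3.11 and 13.3 (-1.17, SE 0.54, adjusted p = 0.258). Of the SOCS family genes tested, Socs3 was called, and Socs2, Socs4, Socs5, Socs6 and Socs7 were not called. Of 7 adaptor genes 0 were called by limma or edgeR and 2 were at an unadjusted p under 0.05. Ptpn11, for the phosphatase SHP2 that links gp130 to the MAP kinase route, was at 805 ± 80.1 and 710.2 ± 58.9, and Grb2 at 299 ± 27.0 and 335 ± 21.7. Of the other genes listed under C/EBP, by symbol or role, 0 of 4 were called, with 1 at an unadjusted p under 0.05 and 0 by edgeR. The most abundant of them were Cebpg (-0.29, SE 0.21) and Cebpz (0.21, SE 0.21).

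Genes described elsewhere as induced through STAT3 were higher as a list. Of 30 such genes 25 were tested, 11 rose and 0 fell by limma, and 12 rose and 0 fell by edgeR, with 13 at an unadjusted p under 0.05, where all tested genes gave 19.3%. The median log2 change was 0.93, against -0.01 for all tested genes. Several of these genes were known to be high in these data when the list was written, so the count is not independent evidence of a direction, and some are also expressed by microglia and other cells whose markers rose. The siderophore-binding lipocalin gene Lcn2 was listed at 1 in every control and at 108, 65.3 and 110.6 after MCAO, which is at least 26.5-fold higher when each control is set to its own floor of 3 reads. Timp1, a metalloproteinase inhibitor gene, was listed at 1 in controls 1 and 2 and at 1.51 in control 3, and ranged from 21.8 to 57.9 after MCAO. The intermediate filament gene Gfap was at 649, 523 and 557 in the controls and at 5816, 5272 and 8028 after MCAO (log2 change 3.45, SE 0.18), and Vim at 66.5, 67.4 and 55.8 and at 726, 806 and 1594 (3.93, SE 0.24).

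The MCAO 2 library was lowest of its group in Gfap, Lcn2 and Timp1, as it was in Stat3, Cebpd and Osmr, while for Socs3 it was highest. The other called genes of the list were Serpina3n, Cd44, Ccnd1, Il4ra, A2m, Mt2 and Nes, which are listed without a choice among them. MCAO 2 was also lowest in Serpina3n, Cd44, Ccnd1 and A2m. In Vim and Mt2 another MCAO library was lowest, and in Il4ra and Nes MCAO 2 was highest, so the targets did not share 1 order. Il4ra, a cytokine receptor gene chosen after its values were seen, went from 14.4, 12.4 and 15.1 to 47.1, 68.4 and 45.3 (1.85, SE 0.32, adjusted p = 0.00638). The most abundant uncalled genes were the metallothionein gene Mt1, at 1372 ± 501 and 2396 ± 388 (0.87, SE 0.25, adjusted p = 0.0747), and the survival gene Mcl1, at 279 ± 4.93 and 333 ± 27.7 (0.25, SE 0.14, adjusted p = 0.358).

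**Figure D4:**
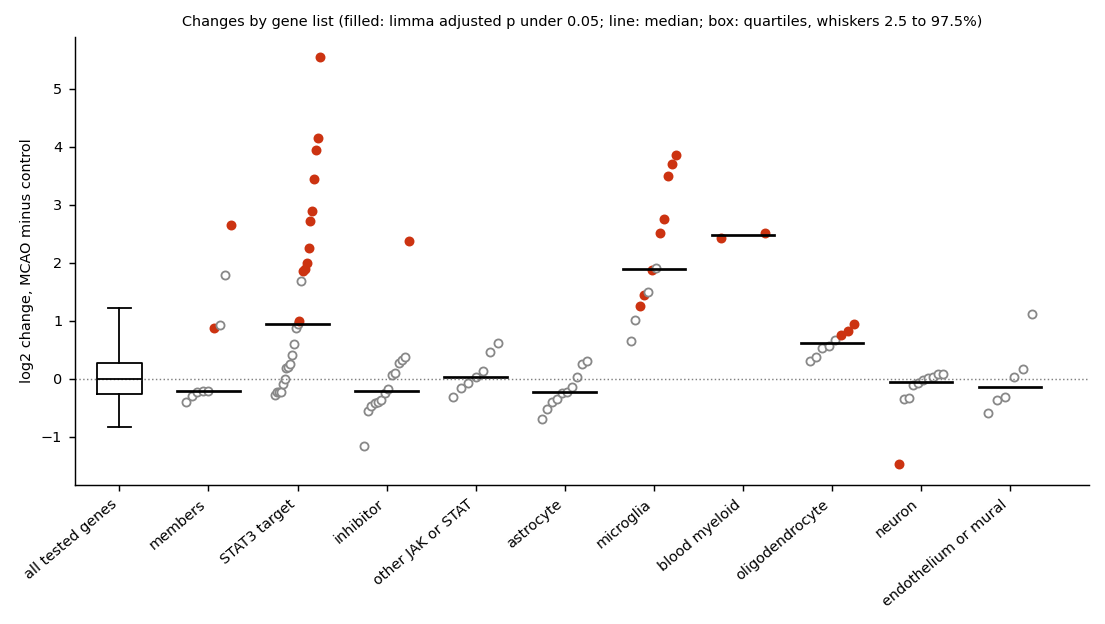
Log2 change from control to MCAO for the tested genes of each list, with filled points for an adjusted p under 0.05, a line at the list's median, and a box with quartiles and whiskers around the central 95% of all 12549 tested genes. The medians of the members, -0.22, and of the astrocyte markers, -0.24, both lie slightly below that of all genes. The list of STAT3 targets at 0.93 and the microglia markers at 1.89 lie above.

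The genes whose profile was most like that of Stat3 over the 6 libraries were found by Pearson correlation of log2 values over the 8375 genes whose mean reached 50. They were Ackr1, Wfs1, Ctsd, Akr1b3 and Tgm1, with r from 0.99 to 0.995. These points share the libraries, their scale factors and the difference between the groups, and r is given as a description. In each of the 5, as in Stat3, MCAO 2 was the lowest and MCAO 3 the highest MCAO library. The 5 were selected for likeness to Stat3 over these same libraries, so the shared order is no separate result. The controls of Tgm1 have 0 reads and are all listed at 1, so their equality is set by that floor. Their sizes of change differ widely. Ctsd, the gene of the lysosomal protease cathepsin D, went from 1456 ± 112 to 4292 ± 692 (log2 change 1.55, SE 0.17), and Tgm1, a transglutaminase gene, was listed at 1 in every control and at 155, 71.5 and 199 after MCAO. Ackr1, Wfs1 and Akr1b3 had log2 changes of 0.26, 0.46 and 0.35 and were not called (adjusted p = 0.526, 0.103 and 0.234).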

How the data were processed

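The authors deposited 1 table of normalised signal for 12968 genes in 6 libraries, 1 per animal, each from 2 pooled immunoprecipitations and, per the series design, 2 technical replicates, with no word on how they were joined. The submitters' processing notes list mm10, CASAVA 1.8, HISAT2, Partek 6.6, R 3.3.1 and DESeq2 without roles. The counting step, strand setting and gene filter were not given in the sources used here, so reads of overlapping or antisense genes may be mixed. The deposited signal is read counts divided by 1 factor per library: division by the column's step gave whole reads, within 0.1, for 99.954% of values above 1 in control 1 and 100% in the others. Values under 1 are listed at 1, which hides up to 3 reads in control 1 and 1 read in MCAO 1 and MCAO 3. The lowest row maximum was 10.6, so the rows of Clcf1, Lcn2, Timp1, Csf3r and Tgm1 exist only through their MCAO values. No pair of libraries was identical.

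Genes with a mean of at least 10 were tested with limma 3.58.1 in R 4.3.3 on log2(value + 1), with empirical Bayes moderation and an intensity trend, two-sided, and Benjamini-Hochberg adjustment over all tested genes. The mean was taken over all 6 libraries, so a gene could pass through 1 group alone. Socs3, Osmr, Ptpn6, Csf3r, Lcn2, Timp1 and Tgm1 had control means below 10 and passed through their MCAO values. The script was tested on simulated data. edgeR 4.0.16 (quasi-likelihood, 520 genes called) and DESeq2 1.42.0 (549) were run on recovered reads, with values listed at 1 taken as 0 reads. Counting intervals are exact at 95% and leave out error from PCR copying and from animals. The other alternatives were pseudocounts of 0.1 and 10, no filter, a mean of at least 50, quantile normalisation, no intensity trend and the omission of each library.

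The members and gene lists were chosen with earlier results of these data known. Named genes are the 10 members; the called genes of each pathway list or else its 2 most abundant; 4 called STAT3 targets with the largest change, any that fell, and 2 abundant uncalled ones; 2 per marker list; and 5 genes most like Stat3. Other names were chosen after their values were seen. Some genes that the rule names are not reported here and not drawn by name. Of 10 endothelial and mural genes 6 were tested with 0 called by limma or edgeR, 1 at an unadjusted p under 0.05, Vtn and Pdgfrb being the most abundant.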

Additional observations from a re-analysis of the deposited data

How the results depend on the processing

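Of 132 values of the 9 tested members under 15 alternatives, 116 kept their direction and side of the threshold, 7 lost a call (Stat3 and Socs3), 7 gained one (Cebpd and Cntfr), and 2 changed sign, Jak1 (0.007) and Jak2 (0.037), with control 2 and MCAO 2 left out. The cause was not tested. Called genes numbered 387, 157 without the intensity trend and 148 to 306 with 1 library left out. Called members numbered 2, 1 at a mean of at least 50, where Socs3 is not tested, 0 without the trend, 4 with both shallow libraries left out, and 0 to 3 with 1 library left out. Without MCAO 3 no member was called. Other pathway genes called numbered 1, 2 without the filter, 0 at a mean of at least 50, 0 without the trend, and 0 to 1 with 1 library left out. STAT3 target genes called numbered 11, and 7 at a mean of at least 50. Called genes were 74.4% higher ones, but 88.5% without the trend and 58.4% with both shallow libraries left out. The neuron marker Snap25 (0.09) turned to -0.002 with quantile normalisation and ranged from -0.052 (without MCAO 1) to 0.17 (without MCAO 3) with 1 library left out. Depth limits Osmr, Cebpb, Cebpd and Socs3, which rest on 1 to 11 reads in control 2, control 3 and MCAO 2. No paired analysis was possible because the labels carry no replicate numbers that the groups share.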
